A study of Mus musculus with 6 samples.

Results

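The Hippo pathway genes examined here were 10 genes chosen by symbol from a table of 34590 gene symbols: the transcriptional co-activators Yap1 and Wwtr1, the transcription factors Tead1, Tead2, Tead3 and Tead4, the kinases Lats1 and Lats2, and the upstream regulators Wwc1 and Nf2. All 10 were counted in every library and were among the 17345 genes that passed the filter on low counts. The RNA came from 3 host mice whose inguinal mammary glands (gland number 4) had been cleared of their own epithelium and engrafted on the left with WT.EGFP+ and on the right with Adamts18-/-.EGFP+ epithelium, so that genotype and body side cannot be told apart. The Adamts18-/- allele lacks the exons for the zinc-binding catalytic site of this secreted protease in every cell of the donor, and donors of both genotypes carried EGFP driven by a chicken beta-actin promoter. Mutant and EGFP lines were kept on a C57BL/6JOlaHsd background, and the hosts of such grafts were WT females. The study describes the pairs as independent experiments with different donors. The age of the hosts at collection is not given in the sources used here.

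In the Hippo pathway, Nf2 (merlin) and Wwc1 (Kibra) at the cell membrane help to switch on the kinases Stk3 and Stk4, which with Sav1 and the Mob1 proteins activate Lats1 and Lats2. The Lats kinases phosphorylate Yap, encoded by Yap1, and Taz, encoded by Wwtr1, which keeps them out of the nucleus. Unphosphorylated Yap and Taz enter the nucleus and bind Tead proteins on DNA to activate transcription. In mammary epithelium the pathway is known for reading cell contact and matrix stiffness and for its part in basal and stem cell behaviour. Since kinase activity and protein location set the output of the pathway, transcript levels describe the supply of its components and not its activity.

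Tead proteins recognise the hexamer GGAATG, read as CATTCC on the opposite strand. RefSeq promoter windows (build GRCm38.p6, 250 bases before to 50 after a transcription start) were found for 8 of the 10 genes, all but Tead1 and Tead4. The hexamer occurred on either strand in the first listed window of 4 of these 8 genes, against 14.6% of the first windows of all 27025 genes in the table. It began 141 bases before the start of Yap1, 136 before that of Wwtr1, 182 before that of Tead3 and 5 bases after that of Lats2. The first windows of Tead2, Wwc1, Lats1 and Nf2 held no such letters. A match is a description of letters and not of binding. The windows of Tead2, Tead3 and Wwc1 are printed because these were the members with an unadjusted p under 0.05 between genotypes, and that of Yap1 for the hexamer upstream of the co-activator itself. The hexamer stands in capitals.
Tead2 promoter, chr7:45215542-45215841, plus strand: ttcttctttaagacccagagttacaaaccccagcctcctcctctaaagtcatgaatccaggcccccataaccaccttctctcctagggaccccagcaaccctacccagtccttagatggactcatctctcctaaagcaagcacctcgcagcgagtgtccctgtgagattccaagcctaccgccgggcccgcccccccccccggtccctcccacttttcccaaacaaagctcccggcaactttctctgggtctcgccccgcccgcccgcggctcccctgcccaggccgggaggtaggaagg
Tead3 promoter, chr17:28350756-28351055, minus strand: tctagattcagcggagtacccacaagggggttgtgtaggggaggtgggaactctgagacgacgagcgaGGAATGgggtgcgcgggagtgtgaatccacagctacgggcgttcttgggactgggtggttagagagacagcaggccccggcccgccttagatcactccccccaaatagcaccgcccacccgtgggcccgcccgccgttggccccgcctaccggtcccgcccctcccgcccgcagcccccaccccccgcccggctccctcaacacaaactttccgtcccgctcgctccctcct
Wwc1 promoter, chr11:35980478-35980777, minus strand: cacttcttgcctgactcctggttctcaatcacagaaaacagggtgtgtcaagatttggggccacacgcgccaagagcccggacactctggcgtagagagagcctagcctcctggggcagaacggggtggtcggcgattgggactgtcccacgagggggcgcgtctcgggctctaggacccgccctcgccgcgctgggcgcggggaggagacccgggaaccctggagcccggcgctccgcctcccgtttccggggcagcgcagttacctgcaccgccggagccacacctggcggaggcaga
Yap1 promoter, chr9:8004547-8004846, minus strand: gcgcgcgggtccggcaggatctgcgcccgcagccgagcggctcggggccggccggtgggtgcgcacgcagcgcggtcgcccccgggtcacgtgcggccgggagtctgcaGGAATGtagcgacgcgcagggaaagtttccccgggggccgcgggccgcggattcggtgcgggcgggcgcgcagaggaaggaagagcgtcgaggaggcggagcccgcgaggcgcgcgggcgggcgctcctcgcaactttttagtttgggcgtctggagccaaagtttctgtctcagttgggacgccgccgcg
The sequences are printed 5′ to 3′ along the strand of the gene. Tead3 had 3 listed windows, and the hexamer occurred 3 times in the second of them, which is not shown.

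The deposited values are the numbers of reads counted per gene, which summed to between 53875123 and 71595924 in a library. They are given here as CPM, counts normalised to the size of the library after its correction with edgeR's TMM factors, and the level that 0 counts still allow, 3 counts, came to between 0.043 and 0.0574 CPM, which covers counting error only. The labels call the samples sorted GFP-positive mammary epithelial cells. In each of the 6 libraries, however, the summed level of 7 fibroblast markers was between 8828 and 12181 CPM and that of 7 adipocyte markers between 7473 and 18825 CPM, beside 1036 to 2099 CPM for 24 pan-epithelial genes, and the libraries are called glands below. Both glands of mouse 3 stood apart from the others on the first principal component (-41.6 and -87.2, against 20.9 to 42.0). Adamts18 itself, counted over the whole gene, was at 3.61, 9.92 and 6.80 CPM in WT glands of mice 1, 2 and 3, and at 2.75, 4.87 and 3.29 CPM in the contralateral Adamts18-/- glands. It was lower in the Adamts18-/- gland of every mouse, although the groups overlapped (log2 fold change -0.83, unadjusted p = 0.00922, edgeR, and 0.0582 without mouse 2). Only the engrafted epithelium was mutant, and the study detected Adamts18 transcript by RT-PCR in WT fat pads carrying such epithelium, from the stroma. The source of the reads left in the Adamts18-/- glands was not tested.

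Tead2 and Wwc1 were lower in Adamts18-/- glands, and no member was called higher. A gene was called when its fold change lay below 0.8, or above the inverse of 0.8, and its unadjusted p was below 0.05, which are the thresholds the study used. By this rule 2 of the 10 genes were called lower and 0 higher, against 1.84% and 1.17% of all tested genes, in a quasi-likelihood fit with edgeR that took the mouse as a block. With Tead3, which missed the fold threshold, 3 of 10 members had an unadjusted p under 0.05, against 3.86% of all genes. After adjustment over all genes, 0 members and 0% of all genes passed 0.05 with edgeR, where the smallest adjusted p was 0.771 and 670 genes had an unadjusted p below 0.05. DESeq2 gave 1 member, Tead2 (adjusted p = 0.0395), and 71 genes in all. The fitted log2 fold change was below 0 for 9 of the 10 members, against 49.8% of all genes, and the median over the members was -0.18, against 0.00065 over all genes tested. Both rested in large part on mouse 3, without which 6 of the 10 fitted values were below 0 and the median was -0.040. In every mouse, 5 of the 10 members had a lower value in the Adamts18-/- gland, against 12.7% of all genes, and 0 had a higher value in every mouse, against 10.8%. For 3 members, Tead2, Tead3 and Wwc1, the WT and Adamts18-/- glands did not overlap, against 2.63% of all genes not overlapping in this direction, and 0 members stood clear in the other, against 2.31%. The members and all lists below were chosen with earlier results of these data known. Their shares beside those of all genes are therefore descriptive and test no enrichment. Fewer cells of a type and less RNA per cell cannot be told apart in such bulk libraries.

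**Figure D1:**
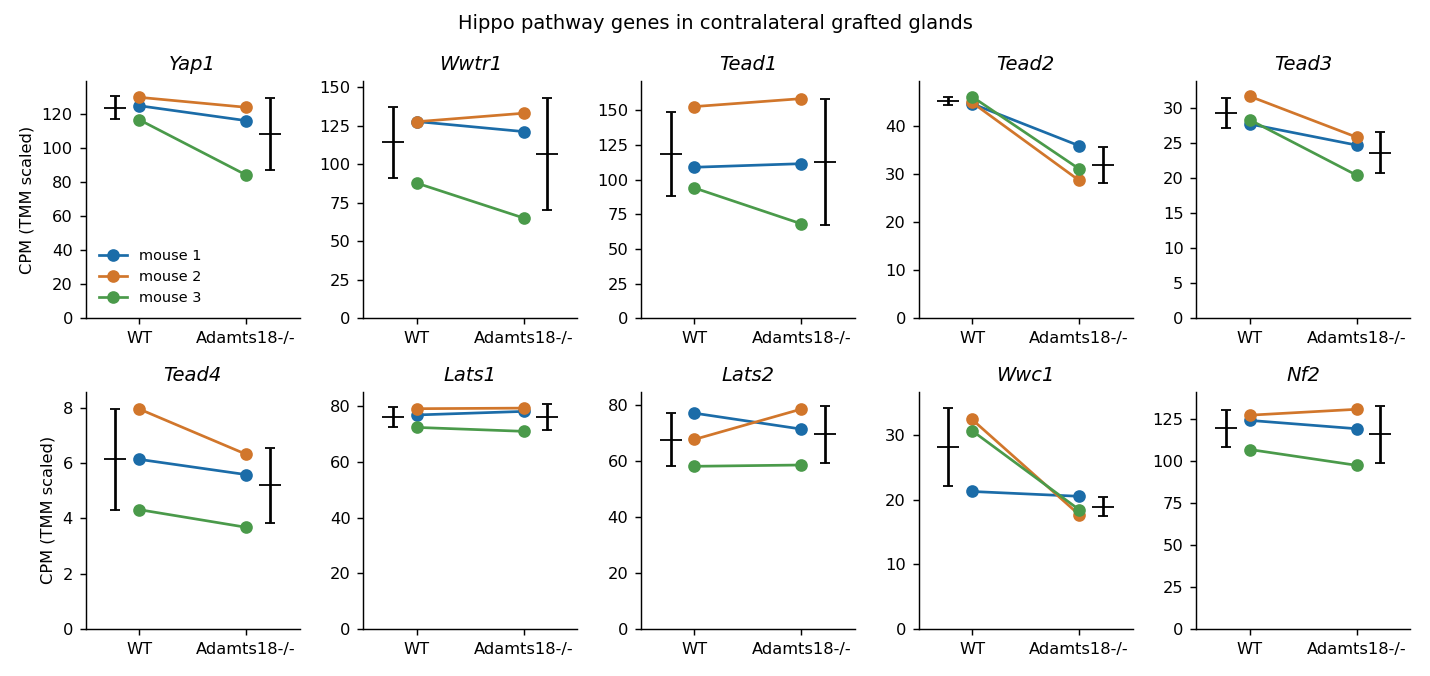
Level of each of the 10 genes in CPM (vertical axes, all starting at 0) in the WT and Adamts18-/- gland of each mouse. Lines join the glands of 1 mouse, and the black bars give the mean and SD of the 3 glands of a genotype. Every Adamts18-/- gland lies below every WT gland for Tead2, Tead3 and Wwc1, whereas Lats1 runs level in each mouse and Wwtr1 and Tead1 are lowest in both glands of mouse 3.

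Yap1 and Wwtr1 encode the co-activators through which the pathway acts on transcription. Yap1 was at 125, 129.9 and 117 CPM in WT glands, again from mouse 1 to mouse 3, and at 116, 124 and 84.2 CPM in the Adamts18-/- glands. The value of the Adamts18-/- gland of mouse 3 lay well below the other 5, and the groups overlapped. Means with their SD over 3 glands were 124 ± 6.64 CPM for WT and 108 ± 21.1 CPM for Adamts18-/-, giving a log2 fold change of -0.21 with a 95% interval from -0.49 to 0.063. Wwtr1 was at 128, 128 and 87.8 CPM in WT glands and at 121, 133 and 65.1 CPM in Adamts18-/- glands. Both glands of mouse 3 were below all glands of mice 1 and 2, and the log2 fold change was -0.15 (95% interval -0.45 to 0.15). The unadjusted p was 0.102 for Yap1 and 0.257 for Wwtr1 (edgeR's quasi-likelihood test). These intervals leave room for a decrease of Yap1 to 0.712 of the WT level and of Wwtr1 to 0.732, and for increases to 1.04 and 1.11. The values of mice 1 and 2 hardly differed between glands, at -0.10 and -0.067 on the log2 scale for Yap1 and -0.076 and 0.061 for Wwtr1, while mouse 3 gave -0.47 and -0.43. Without mouse 3 the fitted log2 fold changes were -0.078 for Yap1 and 0.00070 for Wwtr1.

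The Tead genes encode the DNA-binding partners of Yap and Taz, and 1 of the 4, Tead2, was called. Tead2 was at 44.6, 44.8 and 46.0 CPM in WT glands, in the order of mice 1 to 3, and at 35.8, 28.6 and 31.0 CPM in the Adamts18-/- glands. The WT glands were nearly equal, and each Adamts18-/- gland was below all of them. The means were 45.2 ± 0.782 and 31.8 ± 3.67 CPM (SD, n = 3 each). The log2 fold change was -0.51 (standard error 0.094, 95% interval -0.76 to -0.26), with an unadjusted p of 0.00355 and an adjusted p of 0.987 from edgeR's quasi-likelihood test, and the differences in mice 1, 2 and 3 were -0.31, -0.65 and -0.57. Tead2 stayed past the thresholds when any 1 mouse was left out.

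Tead3 was at 27.7, 31.7 and 28.3 CPM in WT glands and at 24.7, 25.9 and 20.4 CPM in Adamts18-/- glands. The groups did not overlap, with the highest Adamts18-/- gland 1.89 CPM below the lowest WT gland. Its fitted fold change of 0.806 missed the fold threshold of 0.8, at a log2 fold change of -0.31 (95% interval -0.55 to -0.068, unadjusted p = 0.0221, adjusted p = 0.987, edgeR). The unadjusted p was 0.0533 without mouse 1 and 0.0800 without mouse 2 (edgeR). Tead4, the least abundant member, was at 6.14, 7.96 and 4.32 CPM in WT glands and at 5.58, 6.32 and 3.68 CPM in Adamts18-/- glands. It was lower in the Adamts18-/- gland of each mouse, with differences of -0.14, -0.33 and -0.23 on the log2 scale, but the spread between mice was larger and the groups overlapped (log2 fold change -0.23, 95% interval -0.58 to 0.12). Tead1 was at 109, 153 and 94.0 CPM in WT glands and at 111, 158 and 68.1 CPM in Adamts18-/- glands. Mouse 2 had the highest values and mouse 3 the lowest in both genotypes, and only in mouse 3 was the Adamts18-/- gland below its WT partner (log2 fold change -0.13, 95% interval -0.46 to 0.21).

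**Figure D2:**
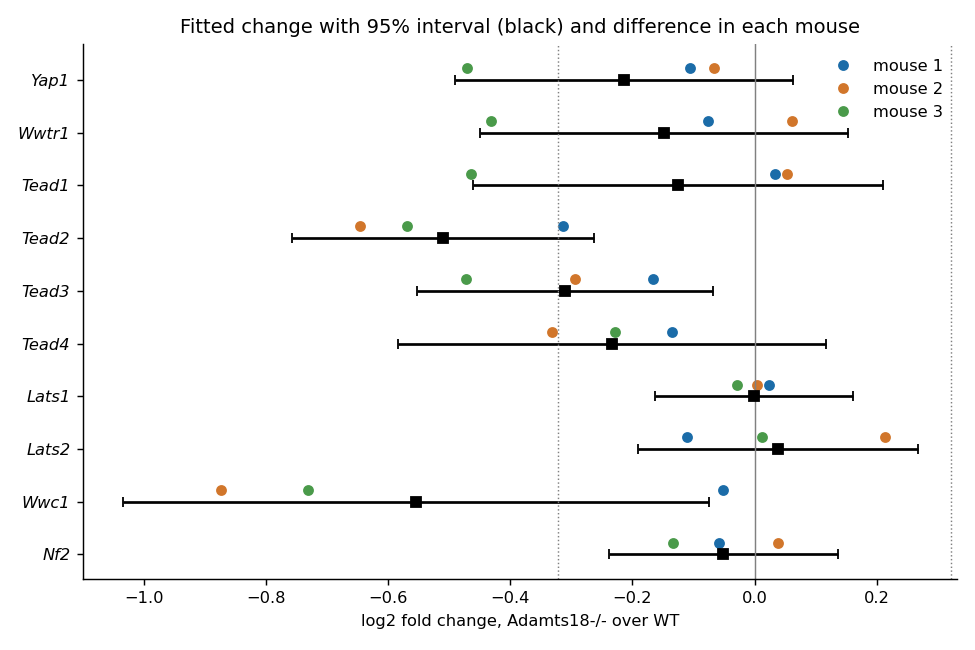
Log2 fold change of Adamts18-/- over WT glands (horizontal axis) for each of the 10 genes. Black squares and bars give the edgeR estimate and its 95% interval, coloured points the difference in each mouse, and dotted lines the fold change of 0.8 and its inverse. The intervals of Tead2, Tead3 and Wwc1 lie below 0, and for Yap1, Wwtr1 and Tead1 the point of mouse 3 lies apart from those of mice 1 and 2.

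To set the Tead genes beside each other, CPM was divided by the length of the annotated exons in kb. On this scale Tead1 and Tead2 made up most of the summed Tead level in every gland. From mouse 1 to mouse 3, Tead2 gave 40.2%, 34.0% and 43.8% of the sum in WT glands, and in Adamts18-/- glands 35.8%, 25.7% and 41.6%. The share of Tead2 was lower in the Adamts18-/- gland of each mouse, with differences of -4.42, -8.29 and -2.13 percentage points, and that of Tead1 was higher by 4.61, 9.35 and 0.706 points. The differences between mice were as large, with the groups overlapping (Tead2 mean 39.3% ± 4.95 in WT and 34.4% ± 8.06 in Adamts18-/- glands, SD, n = 3 each). Tead3 stayed between 16.6% and 19.5% and Tead4 between 5.46% and 8.03%. The summed Tead level was between 21.96 and 27.5 CPM per kb in WT glands and was 20.9, 23.3 and 15.6 in the contralateral Adamts18-/- glands, lower in every mouse. Shares depend on the length used. With the longest transcript of each gene as its length, the mean share of Tead3 in WT glands was 23.9% in place of 18.1%, and that of Tead2 was still lower in the Adamts18-/- gland of each mouse, with differences of -4.15, -7.87 and -1.99 points.

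**Figure D3:**
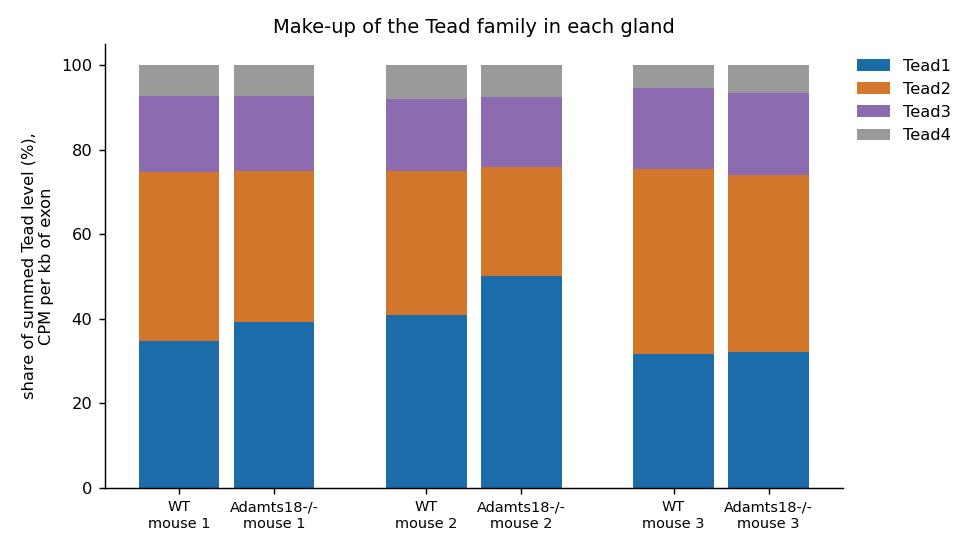
Share of each Tead gene in the summed Tead level (vertical axis, percent of CPM per kb of exon) in the 6 glands, with the glands of 1 mouse side by side. The Tead2 segment is smaller and the Tead1 segment larger in the Adamts18-/- gland of each mouse, most in mouse 2, where Tead2 falls from 34.0% to 25.7%.

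Lats1 and Lats2 encode the kinases that phosphorylate Yap and Taz. Lats1 was at 76.9, 79.1 and 72.4 CPM in WT glands and at 78.2, 79.3 and 71.0 CPM in Adamts18-/- glands. Contralateral glands differed by 0.024, 0.0038 and -0.028 on the log2 scale in mice 1, 2 and 3, and the 95% interval of the fold change ran from 0.893 to 1.12. Lats1 thus had the narrowest interval of the 10 genes. Lats2 was at 77.2, 67.8 and 58.2 CPM in WT glands and at 71.5, 78.7 and 58.7 CPM in Adamts18-/- glands. It was lower in the Adamts18-/- gland of mouse 1 and higher in that of mouse 2, and was the only member with a fitted value above 0 (log2 fold change 0.038, 95% interval -0.19 to 0.27). Per kb of exon, the ratio of Lats2 to Lats1 was between 0.841 and 1.051 in WT glands and between 0.865 and 1.04 in Adamts18-/- glands. The summed level of the Lats kinases over that of Yap1 and Wwtr1 was 0.537, 0.505 and 0.59 in WT glands and 0.553, 0.537 and 0.799 in the contralateral Adamts18-/- glands, on the same scale. This ratio was higher in the Adamts18-/- gland of each mouse, and the gap was widest in mouse 3. The summed Tead level over that of Yap1 and Wwtr1 was 0.576, 0.676 and 0.709 in WT glands. It was 0.552, 0.564 and 0.685 in the Adamts18-/- glands, lower in each mouse, as was the ratio of Yap1 to Wwtr1. None of these ratios was tested or set beside ratios of other genes.

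Wwc1 and Nf2 act upstream of the kinases. Wwc1, which encodes Kibra, was at 21.3, 32.5 and 30.7 CPM in WT glands and at 20.6, 17.7 and 18.5 CPM in the Adamts18-/- glands. The groups did not overlap, but the gap was 0.749 CPM, since the WT gland of mouse 1 was close to its Adamts18-/- partner. The means were 28.2 ± 6.01 and 18.9 ± 1.47 CPM (SD, n = 3 each). Fitted on the log2 scale, the difference was -0.55 (standard error 0.18, 95% interval -1.04 to -0.074, unadjusted p = 0.0316, adjusted p = 0.987, edgeR). The differences were -0.052, -0.87 and -0.73 in mice 1, 2 and 3, so mouse 1 showed little of it. The call was lost without mouse 2 (log2 fold change -0.39, unadjusted p = 0.143) and without mouse 3 (-0.46, unadjusted p = 0.0743, edgeR), and without mouse 1 the value was -0.81. Nf2, which encodes merlin, was at 124, 127 and 107 CPM in WT glands and at 119, 131 and 97.4 CPM in Adamts18-/- glands. The groups overlapped, and the 95% interval of its fold change ran from 0.848 to 1.10.

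Among the 10 genes, the mouse took most of the variance of log2 CPM for 7 and the genotype for 3. The mouse stands here for host, donor and experiment together, which cannot be told apart. The genotype took 87.7% for Tead2, 65.4% for Wwc1 and 62.6% for Tead3. For the other 7 members its share was at most 26.5%, and the mouse took between 54.3% and 97.1%. Over all genes tested the medians were 67.3% for the mouse and 5.98% for the genotype. In mouse 3 the mean level of the contralateral glands was 0.607 times that of mouse 1 for Wwtr1, 0.682 times for Tead4, 0.726 times for Tead1 and 0.786 times for Lats2, but 0.946 times for Tead2 and 1.14 times for Wwc1. Markers of other cells also set the libraries of mouse 3 apart. The summed level of 6 B and plasma cell markers was 1763 and 2329 CPM in its glands, against 210 to 499 CPM in mice 1 and 2, and that of 7 adipocyte markers 9594 and 7473 CPM, against 15714 to 18825 CPM. The part of these cells in the values of mouse 3 was not tested.

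The 10 genes formed a stable order of abundance per kb of exon at its ends. Wwtr1 and Nf2 took the highest and second places in every gland, with WT means of 23.9 ± 4.82 and 17.5 ± 1.61 CPM per kb (SD, n = 3 each), and they changed places in the Adamts18-/- gland of mouse 3. Yap1 followed at 13.4 ± 0.717, then Lats1 (10.4 ± 0.469), Lats2 (9.72 ± 1.36), Tead2 (9.43 ± 0.163) and Tead1 (8.73 ± 2.25), 4 genes of which each differed from the next by less than the larger of their SDs. Wwc1 (5.68 ± 1.21) and Tead3 (4.36 ± 0.318) came next, and Tead4 (1.71 ± 0.506) was lowest in all 6 glands. With the longest transcript as the length, Tead4 was again lowest and Nf2, Wwtr1 and Yap1 again took the 3 highest places in the WT means, with Nf2 ahead.

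Most markers of epithelial cells also had a fitted value below 0. Of 24 pan-epithelial genes, all had a fitted value below 0 and 5 were lower at the thresholds, against 49.8% and 1.84% of all genes. These 5 were Spint1, St14, Krt7, Krt8 and Krt18, of which the keratins belong to the luminal layer. All 7 adipocyte, 6 endothelial and 6 tested secretory luminal markers were also below 0, with 0, 0 and 1 called lower. So were 5 of 6 hormone-sensing luminal and 3 of 7 fibroblast markers. Of 6 macrophage markers 2 were, of 6 B and plasma cell markers 1, and of T cell and muscle markers 0. Of 11 myoepithelial genes, which mark the basal, contractile layer of the duct, 10 were lower at the thresholds, with summed levels of 1333 to 2275 CPM in WT and 902 to 1646 CPM in Adamts18-/- glands. The mean log2 CPM of the pan-epithelial genes differed between the Adamts18-/- and the WT gland by 0.097, -0.75 and -0.45 in mice 1, 2 and 3. Wwc1 differed in the same order (-0.052, -0.87 and -0.73). Tead2 differed by -0.31, -0.65 and -0.57 and Tead3 by -0.17, -0.29 and -0.47, both below 0 also in mouse 1. The mean of the myoepithelial genes was likewise below 0 in each mouse (-0.28, -0.54 and -0.67). So was that of the hormone-sensing luminal genes (-0.27, -0.35 and -0.26), while that of the secretory luminal genes was at 0.16, -0.82 and -1.13. The part of these cells in the values of Tead2 and Tead3 was not tested. Relative to the pan-epithelial mean, Wwc1 differed by -0.15, -0.13 and -0.29 and Tead2 by -0.41, 0.10 and -0.12. With the libraries scaled to the pan-epithelial genes, which raised the median of all genes by 0.37, the log2 fold change was -0.19 for Wwc1 (unadjusted p = 0.587) and -0.14 for Tead2 (unadjusted p = 0.682, edgeR), and 0 of the 10 members were past the thresholds. This scaling moves all genes of a library alike. It put 8 of the 10 fitted values above 0, from 0.055 for Tead3 to 0.41 for Lats2, while relative to the median of all genes the values were nearly as before, at -0.51 for Tead2, -0.55 for Wwc1 and -0.22 for Yap1. A common shift leaves values relative to the median nearly unchanged, so they cannot test the scaling. The 8 skeletal muscle markers, none of which was called, summed to 10705 and 10564 CPM in the Adamts18-/- glands of mice 1 and 2, against 280 and 818 CPM in their WT glands, and to 1830 against 2704 CPM in mouse 3, and their part in the members' values was not tested.

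**Figure D4:**
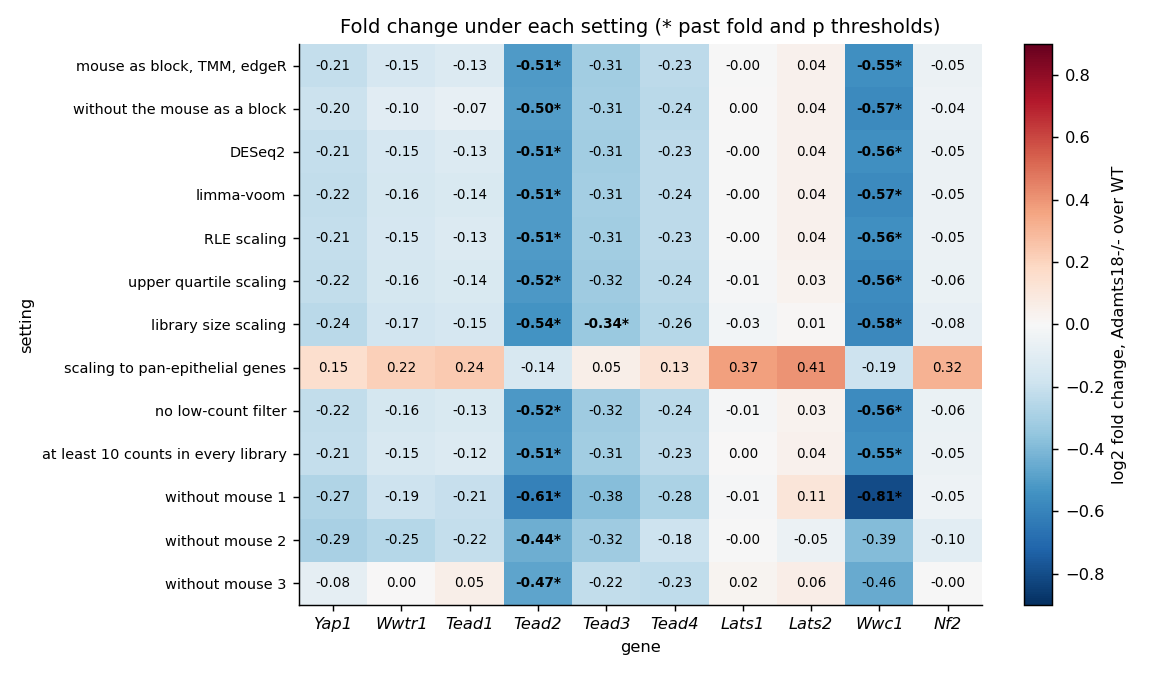
Log2 fold change of Adamts18-/- over WT glands (colour and printed value) for the 10 genes (columns) under each setting of the analysis (rows), with an asterisk where both the fold and the p threshold were passed. Tead2 passes in every setting but the scaling to pan-epithelial genes, Wwc1 fails there and without mouse 2 or 3, and only library size scaling adds Tead3.

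The genes whose profile over the 6 glands was most like that of a member were sought among genes of similar level (mean log2 CPM within 2). Likeness was the root mean square distance between log2 CPM values centred on each gene's mean. The genes named were picked for the smallest distances, so they lie below the median distance by choice. The distance also includes the difference between genotypes, which these genes thus share with the member. For Wwc1 they were Tmem184a (0.0493), Irx2 (0.0656) and 1810019J16Rik (0.0718), against a median distance of 0.38 over 9414 genes. For Tead2 they were Tnk1 (0.0915), Slc45a3 (0.107) and Tfap2b (0.119), against a median of 0.314 over 9513 genes. Yap1 ran closest to Sdc4 (0.0232), which encodes the matrix receptor syndecan-4, then to Clstn1 (0.0329) and Ctnnd1 (0.0365), which encodes the cadherin partner p120 catenin. Among the members themselves, the nearest were Lats2 and Nf2 (0.0827) and the farthest Wwtr1 and Wwc1 (0.491).

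The rest of the pathway was read from 46 further genes, of which 45 were tested. Of these 45, 1 was lower and 0 were higher at the thresholds, 30 had a fitted value below 0, and the median log2 fold change was -0.040. The called share, 2.22%, was near the 1.84% of all tested genes called lower, and 66.7% were below 0, against 49.8% of all genes. The core kinase cassette, Stk3, Stk4, Sav1, Mob1a and Mob1b, held 0 called genes among 5. Stk3 was at 32.3 ± 3.90 CPM in WT and 31.3 ± 7.03 CPM in Adamts18-/- glands, Sav1, the scaffold of the cassette, at 108 ± 15.5 and 108 ± 22.7 CPM, and Mob1a, a co-activator of the Lats kinases, at 197 ± 16.7 and 217 ± 18.8 CPM (SD, n = 3 each). Mob1b, the other Mob1 gene, was at 48.7 ± 3.34 and 49.7 ± 7.40 CPM. Stk4 was at 71.9 ± 6.79 CPM in WT and 95.8 ± 52.1 CPM in Adamts18-/- glands, with differences of -0.023, -0.078 and 0.97 in mice 1, 2 and 3. The spread came from the Adamts18-/- gland of mouse 3, where the T cell markers were also highest (452 CPM in sum, against 25.2 to 163 CPM in the other 5 glands). The part of lymphocytes in this value was not tested.

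Of 12 other kinases linked to the pathway, 0 were called, with log2 fold changes from -0.17 (Stk38l) to 0.33 (Map4k1). Upstream membrane regulators likewise held 0 called genes among 10, with 9 fitted values below 0. The junction and angiomotin adaptors held 0 among 8, although Ptpn14, a phosphatase that binds Yap (log2 fold change -0.27, unadjusted p = 0.0123, edgeR), missed only the fold threshold. Ptpn14 and Crb3 (-0.43, unadjusted p = 0.0779, edgeR) were named after their values were seen. Among 7 inhibitors of the kinases, Jub (Ajuba), an adaptor that holds Lats at junctions, was lower, from 26.9 ± 6.51 to 19.9 ± 2.58 CPM (SD, n = 3 each). The fitted value was -0.42 on the log2 scale (standard error 0.12, unadjusted p = 0.0177, edgeR), and it differed by -0.16, -0.64 and -0.46 in mice 1, 2 and 3. It was not called without mouse 2 (-0.31, unadjusted p = 0.0885), without the mouse as a block or with libraries scaled to pan-epithelial genes. Of the Tead cofactors, Vgll4, which competes with Yap for Tead, was at 61.8 ± 1.45 and 60.2 ± 2.43 CPM, and Vgll1 had 0 counts in all 6 glands. Vgll2, a gene of skeletal muscle, was at 0.136 ± 0.12 and 0.998 ± 0.851 CPM, with differences of 4.11, 3.66 and -0.88 that went the way of the muscle markers in each mouse.

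**Figure D5:**
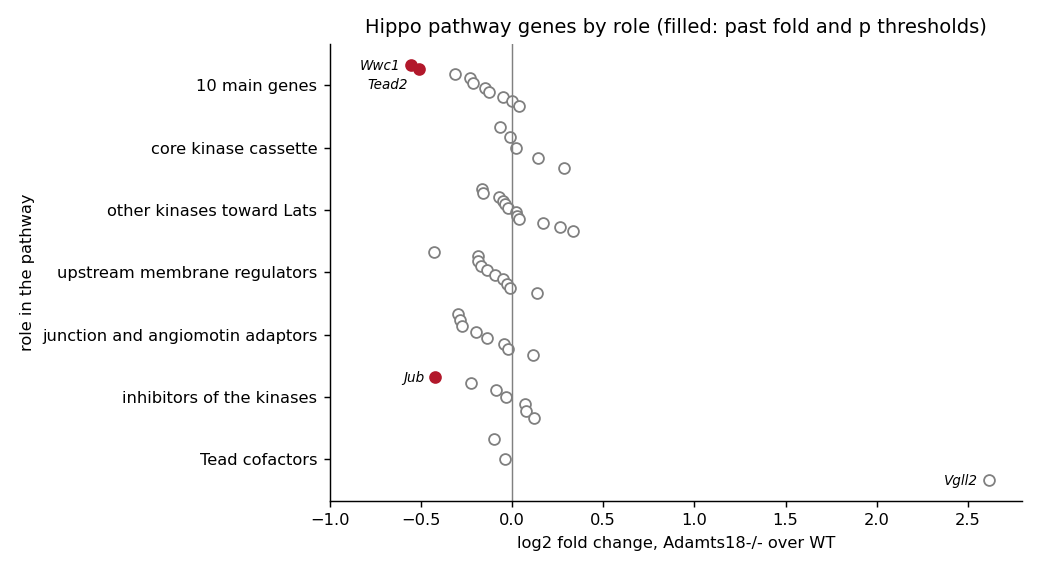
Log2 fold change of Adamts18-/- over WT glands (horizontal axis) for the 10 main genes and the 45 other tested genes of the pathway, grouped by role (vertical axis). Each circle is 1 gene and filled circles passed the fold and p thresholds. Only Wwc1, Tead2 and Jub are filled, and Vgll2, at 2.62, lies apart from the rest.

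Of 6 genes that Yap, Taz and Tead are known to activate, 4 had a fitted value below 0, 2 were called lower and 0 higher. Of all tested genes, 49.8% were below 0, 1.84% were called lower and 1.17% higher. The median log2 fold change of the 6 was -0.13. Jub and Amotl2 are also among the pathway genes counted above. The called genes were Ctgf, which encodes a matrix-associated signalling protein (-0.46, unadjusted p = 0.00420, edgeR), and Jub, described above. Amotl2 (-0.14), Axl (-0.13), Cyr61 (0.44) and Ankrd1 (0.56) were not called. Without mouse 3 Cyr61 was called higher (0.87, unadjusted p = 0.000635), without mouse 2 so was Ankrd1 (0.99, unadjusted p = 0.0199), and without the mouse as a block Ctgf was not called (-0.43, unadjusted p = 0.415, edgeR). The differences in mice 1, 2 and 3 were -0.35, -0.40 and -0.63 for Ctgf, 0.68, 1.06 and -0.44 for Cyr61 and 1.16, -0.34 and 0.80 for Ankrd1.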

How the data were processed

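RNA from 6 glands of 3 host mice was sequenced with single-end reads of 85 bp. The authors deposited raw read counts per gene symbol, 1 column per library, without normalization. The submitters' processing notes name bcl2fastq 2.18, TopHat2 2.0.11, featureCounts 1.6.2, edgeR and the build mm9. The annotation and strand setting are not given in the sources used here, so reads of overlapping antisense genes may be shared. Libraries were assigned to genotype and mouse from the sample titles, and 0 columns belong to other samples.

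Counts were analysed in R 4.3.3 with edgeR 4.0.16 (filter on low counts, TMM scaling, quasi-likelihood test with genotype as the tested term), with Benjamini-Hochberg adjustment of p over 17345 genes. The host mouse was a block because the study compared contralateral glands of 1 host. Deviations from the group means correlated between contralateral glands across genes (r = 0.512, 0.505 and 0.639 in mice 1, 2 and 3). A prior count of 2 was added for log2 CPM. Intervals are 95% intervals from the fitted standard errors. Exon lengths by symbol came from GENCODE M21 (GRCm38), and no coordinates were converted between builds. Promoter windows came from RefSeq (GRCm38.p6). The fit was tested on simulated data. DESeq2 1.42.0, limma 3.58.1 (voom), no block, other scalings, other filters, other thresholds and each mouse left out were alternatives, and transcript length for the Tead shares was added after the data were seen.

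The 10 members and all lists were chosen with earlier results of these data known. Named genes were the members, the 5 genes of the core cassette, called genes of the pathway lists, Ctgf, Cyr61, Ankrd1, Adamts18 and the 3 genes nearest in profile to Yap1, Tead2 and Wwc1. Vgll1, Vgll2, Vgll4, Stk38l, Map4k1, Ptpn14, Crb3, Amotl2 and Axl were named after their values were seen.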

Additional observations from a re-analysis of the deposited data

How the results depend on the processing

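Of the 12 alternative fits, 11 kept Tead2 and 9 kept Wwc1 past the thresholds. The samples of a pair share a host, and in the fit without the replicate block both stayed called, the pathway lists held 0 genes lower and 1 higher (Vgll2), 125 genes in all were lower and Lats1 was at 0.00047, while Jub (-0.44), Ctgf (-0.43) and Adamts18 (-0.90, unadjusted p = 0.0767, edgeR) were no longer called. DESeq2 gave 1 higher pathway gene, 340 higher genes in all, 1 member and 71 genes by adjusted p, and limma-voom 345 higher genes, against 203 with edgeR. Scaling by library size gave 2 lower pathway genes, added Tead3 (-0.34) to the members and put Mob1b at -0.0037. Without the low-count filter 352 genes were higher, and with at least 10 counts in every library Lats1 was at 0.00077. A threshold of 0.5 on the log2 scale left 0 pathway genes and 189 of all genes lower, and no fold threshold gave 3 lower pathway genes.

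With scaling to pan-epithelial genes 0 members and 0 pathway genes were lower, 1 pathway gene was higher, 30 genes were lower and 1055 higher in all, and 258 passed by adjusted p. The log2 fold changes that changed sign were then 0.15 for Yap1, 0.22 for Wwtr1, 0.24 for Tead1, 0.055 for Tead3, 0.13 for Tead4, 0.37 for Lats1, 0.32 for Nf2, 0.30 for Stk3, 0.35 for Sav1, and 0.23 for both Amotl2 and Axl, while Ctgf was at -0.092 and not called and Cyr61 (0.79) and Ankrd1 (0.92) were called higher. This scaling raised the median of all genes by 0.37, and relative to that median Ctgf was at -0.46, Cyr61 at 0.43 and Ankrd1 at 0.55. Relative to the median of each fit, Tead2 was between -0.61 and -0.45 and Wwc1 between -0.81 and -0.40 over all alternatives. A change of scaling shifts all genes of a fit nearly alike, so values relative to the median cannot test the scaling.

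When each mouse was left out in turn, between 1 and 2 members were called lower (1 without mouse 2 or 3) and 0 higher, between 1 and 2 pathway genes were lower and between 0 and 1 higher, between 214 and 481 genes were lower and between 182 and 581 higher in all, and between 0 and 268 genes passed by adjusted p, the last without mouse 3. The ranges of genes whose sign changed were -0.25 to 0.00070 for Wwtr1, -0.22 to 0.052 for Tead1, -0.013 to 0.022 for Lats1, -0.050 to 0.11 for Lats2, -0.14 to 0.038 for Stk3, -0.042 to 0.47 for Stk4, -0.065 to 0.047 for Sav1, -0.089 to 0.12 for Mob1b, -0.30 to 0.059 for Amotl2 and -0.40 to 0.24 for Axl. The cause of these changes was not tested. With 3 mice, differences well inside the widths of the 95% intervals given were not detectable, and Tead4, with 226 to 488 counts in a library, was the least deeply counted member.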
